A study of Mus musculus with 18 samples.

Results

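Organoids grown from the mid colon of mice were compared with organoids grown from the proximal colon after both had been kept in a differentiation medium. The comparison takes 6 of 18 RNA sequencing libraries, 3 mid and 3 proximal, and every gene with an FPKM (a read count divided by the length of the gene and by the size of the library) of at least 1 in at least 3 of the 6. This left 11286 of 56748 genes, 10029 of them protein-coding. Next to the threshold lay Slc34a2, whose deciding library was at 1.0006 FPKM, and Cox17, left out at 0.99978. The other libraries of the series are distal organoids in the same medium and all 3 regions in a control medium, ENR with Wnt3a-conditioned medium, in which organoids proliferate. Both media were applied 3 days after passaging. The labels name no altered gene in any group. Strain and age of the mice are not stated in the sources used here, which also do not say whether replicates 1, 2 and 3 of a group came from separate animals. Spread between libraries, which may be technical, is thus all that the p-values measure. Values of 3 libraries are given below in the order of replicates 1, 2 and 3.

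The colon is not uniform along its length. Its epithelium absorbs salt, water and the short-chain fatty acids made by microbes, and the segments differ in which channels, exchangers and enzymes the surface colonocytes carry. Hox genes, transcription factors arranged in clusters whose order on the chromosome follows the body axis, are set along the gut during development. Organoids consist of epithelial cells alone, so differences by region arise among epithelial cells kept in culture. Nicotinic acid, a vitamin precursor of NAD made by microbes, is named in the title of the series together with regional identity of the colon.

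Promoter sequences of genes at both ends of the comparison are shown first, since the results below turn on genes that were abundant in organoids of 1 region and near 0 in the other. Aqp8 and Tgm3 had the largest differences in favour of mid organoids. Prap1 and Cyp4b1 had the largest differences in favour of proximal organoids among genes with an entry, and Osr2 and Hoxb6 are named only. Each sequence is the 250 bases before the RefSeq start on GRCm38.p6, written 5′ to 3′ on the strand of the gene, and capitals mark a match to a searched motif.
Aqp8, chr7:123462044-123462293, plus strand: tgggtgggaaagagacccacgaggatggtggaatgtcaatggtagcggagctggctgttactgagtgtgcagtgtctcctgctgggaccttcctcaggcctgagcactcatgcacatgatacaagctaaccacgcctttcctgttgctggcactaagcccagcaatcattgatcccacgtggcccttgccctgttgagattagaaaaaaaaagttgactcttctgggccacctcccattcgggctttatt
Tgm3, chr2:130012090-130012339, plus strand: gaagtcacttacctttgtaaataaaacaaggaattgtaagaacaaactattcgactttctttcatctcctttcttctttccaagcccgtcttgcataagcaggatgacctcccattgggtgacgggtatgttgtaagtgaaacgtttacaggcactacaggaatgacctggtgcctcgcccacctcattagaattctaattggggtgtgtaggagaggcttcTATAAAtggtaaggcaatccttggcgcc
Prap1, chr7:140093146-140093395, plus strand: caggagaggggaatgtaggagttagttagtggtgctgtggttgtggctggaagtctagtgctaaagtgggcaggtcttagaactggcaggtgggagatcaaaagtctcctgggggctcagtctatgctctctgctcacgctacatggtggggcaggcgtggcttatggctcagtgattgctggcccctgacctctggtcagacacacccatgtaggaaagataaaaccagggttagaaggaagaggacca
Cyp4b1, chr4:115647722-115647971, minus strand: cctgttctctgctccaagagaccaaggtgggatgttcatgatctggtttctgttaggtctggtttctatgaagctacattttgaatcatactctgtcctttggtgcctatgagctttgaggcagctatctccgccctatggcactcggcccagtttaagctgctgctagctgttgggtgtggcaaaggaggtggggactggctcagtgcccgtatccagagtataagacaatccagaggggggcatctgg

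In these promoters 4 motifs were searched on both strands: TATAAA, the core of the TATA box, CAATAAA and TCGTAAA, forms bound by posterior Hox proteins, and CAAAGTCCA, a form bound by the nuclear receptor HNF4. TATAAA lay 28 bases before the start of Tgm3 and was the only match in the 4 sequences. Among the first promoters of 8288 tested genes, 6.43% held TATAAA, 2.55% CAATAAA, 0.652% TCGTAAA and 0.386% CAAAGTCCA. Of the 137 promoters of genes called higher in mid organoids by at least 2 on the log2 scale, 24.1% held TATAAA, 3.65% CAATAAA, 2.19% TCGTAAA and 2.19% CAAAGTCCA. Of the 59 promoters of genes called lower by at least 2, 10.2% held TATAAA, 5.08% CAATAAA, 1.69% TCGTAAA and 1.69% CAAAGTCCA. These shares describe the letters in the windows and were not tested.

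The 6 libraries held 14365383 to 19938198 recovered reads, and 10868 to 11149 genes per library reached an FPKM of 1. Regions separated along the first principal component, which held 73.2% of the variance, with mid libraries between 37.5 and 42.6 and proximal libraries between -41.6 and -38.7. Proximal replicate 1 stood apart on the second (16.2% of the variance), at 34.9 against -23.6 and -12.3 for proximal replicates 2 and 3. Across genes it correlated at 0.952 and 0.964 with those libraries, which correlated at 0.989 with each other. The summed FPKM of 20 mitosis genes was 212 in proximal replicate 1, 18.6 and 31.8 in proximal replicates 2 and 3, and 35.4, 45.0 and 27.3 in the mid libraries. Each main count is therefore given with and without that library. Epithelial genes were high in every library, with a summed FPKM of 10 epithelial markers from 8672 to 11065. Of 8 fibroblast markers, 10 immune and endothelial markers, 8 nerve and muscle markers and 11 tuft cell markers, 2 passed the level filter, Pdgfrb and Cd68. The fibroblast collagen Col3a1 was at 0 reads in all 6 libraries. The summed FPKM of the fibroblast list was 2.34 to 3.59 in mid and 0.306 to 1.38 in proximal libraries, and its part in the results was not tested.

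Mid and proximal organoids differed in about as many genes in each direction. With limma and a Benjamini-Hochberg adjusted p under 0.05, 3696 of 11286 genes were called (32.7%), 1961 higher in mid (17.4%) and 1735 lower (15.4%). Without proximal replicate 1 the calls were 3561 (31.6%), 1795 higher (15.9%) and 1766 lower (15.6%), and 1567 and 1472 of the first calls remained in their direction. The split depended on scaling. When reads were scaled to the summed reads of a library, 3666 genes were called (32.5%). Of these 1379 were higher (12.2%) and 2287 lower (20.3%), while the median fold change over the tested genes was -0.11 in place of 0.0026 (log2 scale). Large differences leaned towards mid organoids: 194 genes were called higher by at least 2 on the log2 scale and 90 lower, and at 4 the counts were 36 and 7. Fold changes are differences of log2(FPKM + 1), which understates them for genes with low values.

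**Figure D1:**
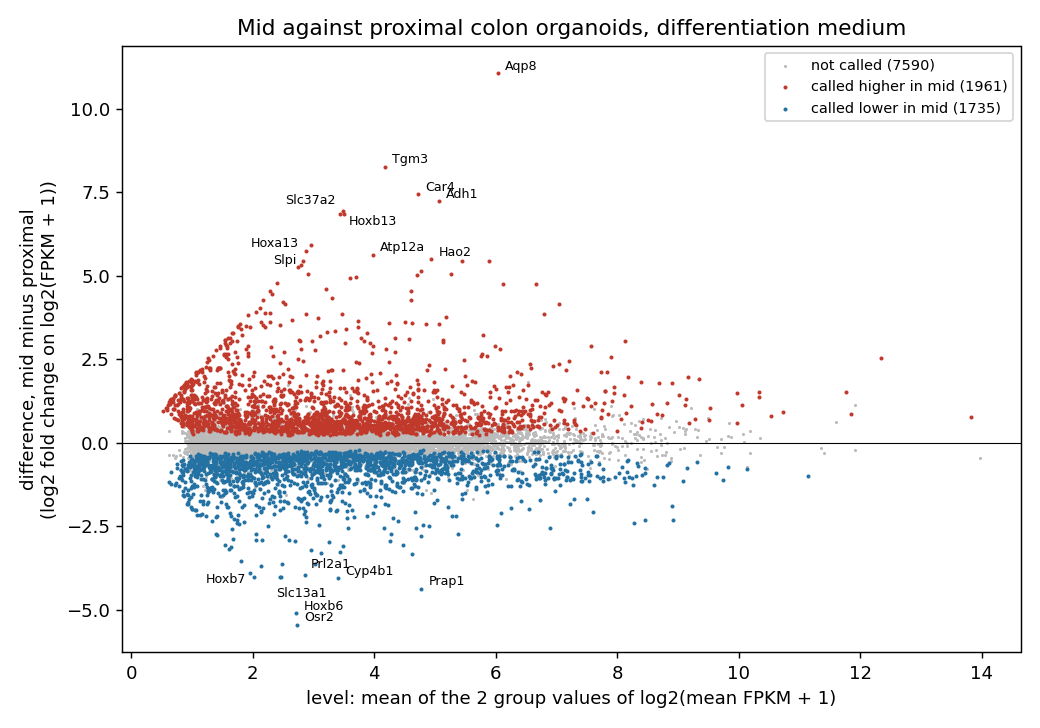
Each point is a gene, with its mean level in mid and proximal organoids on the x axis and its mid minus proximal log2 fold change on the y axis. Red points were called higher in mid (1961) and blue points lower (1735), and Aqp8 at 11.06 and Osr2 at -5.44 mark the extremes.

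Genes of position along the body axis were switched between the regions. Hoxb13 (ENSMUSG00000049604, chromosome 11, 96085142 to 96088273 on mm39), the most posterior HoxB gene, was at 124, 111 and 110 FPKM in mid libraries and at 0 reads in all 3 proximal libraries. Against a floor of 3 reads over the proximal group it was at least 3969.6-fold higher in mid organoids (fitted log2 fold change 6.86 ± 0.17 SE, adjusted p = 2.23e-13). Hoxa13 (ENSMUSG00000038203, chromosome 6, 52234674 to 52237788), its counterpart in the HoxA cluster, was at 51.0, 53.5 and 55.2 FPKM in mid and at 0 reads in the proximal libraries, at least 1997.2-fold higher (5.76 ± 0.09, adjusted p = 4.77e-16). Neither gene had a read in any proximal library, so the groups were fully apart. The reverse held for Osr2 (ENSMUSG00000022330, chromosome 15, 35296244 to 35303451), a zinc finger transcription factor. It was at 38.3, 48.1 and 41.8 FPKM in proximal libraries and at 0 reads in the mid libraries, at least 2459.6-fold lower in mid (-5.44 ± 0.16, adjusted p = 1.86e-12). Hoxb13 and Hoxa13 passed the filter through mid libraries alone, and Osr2 through proximal libraries alone. Passing thus implied a difference for each of these genes. Floors cover counting error only.

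The deposited values cover 39 Hox genes, of which 15 passed the filter. The 14 of these other than Hoxb9 reached an FPKM of 1 in the libraries of 1 region alone, so that passing the filter implied a difference, and their counts are a description. All 7 HoxA genes that passed were higher in mid organoids. Hoxa10 was at 9.33, 10.2 and 11.8 FPKM in mid and at 0 reads in proximal libraries, and Hoxa9 at 3.24, 3.84 and 3.14 FPKM against 0 reads. Hoxa3, Hoxa5, Hoxa6 and Hoxa7 were lower, between 1.20 and 4.18 FPKM in mid and at most 0.255 FPKM in proximal libraries. The HoxB cluster went the other way except for its last gene. Hoxb6 was at 40.2, 39.3 and 33.4 FPKM in proximal libraries and at 0.167, 0.0958 and 0.0926 in mid libraries (-5.11 ± 0.12, adjusted p = 1.67e-13). Hoxb7 was at 15.3, 15.8 and 14.7 FPKM in proximal libraries with 0 reads in mid, at least 375.3-fold lower. Hoxb3, Hoxb4, Hoxb5 and Hoxb8 followed the same pattern at 1.71 to 17.2 FPKM in proximal and at most 0.0295 FPKM in mid libraries. Hoxb9 had reads in both regions, 5.91, 7.31 and 4.62 FPKM in mid against 56.9, 46.5 and 51.9 in proximal libraries (-2.94 ± 0.21, adjusted p = 5.44e-08). No HoxC or HoxD gene passed, and Hoxd13 was at 0 in all 6 libraries and at 22.9 FPKM on average in distal organoids of the same medium.

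**Figure D2:**
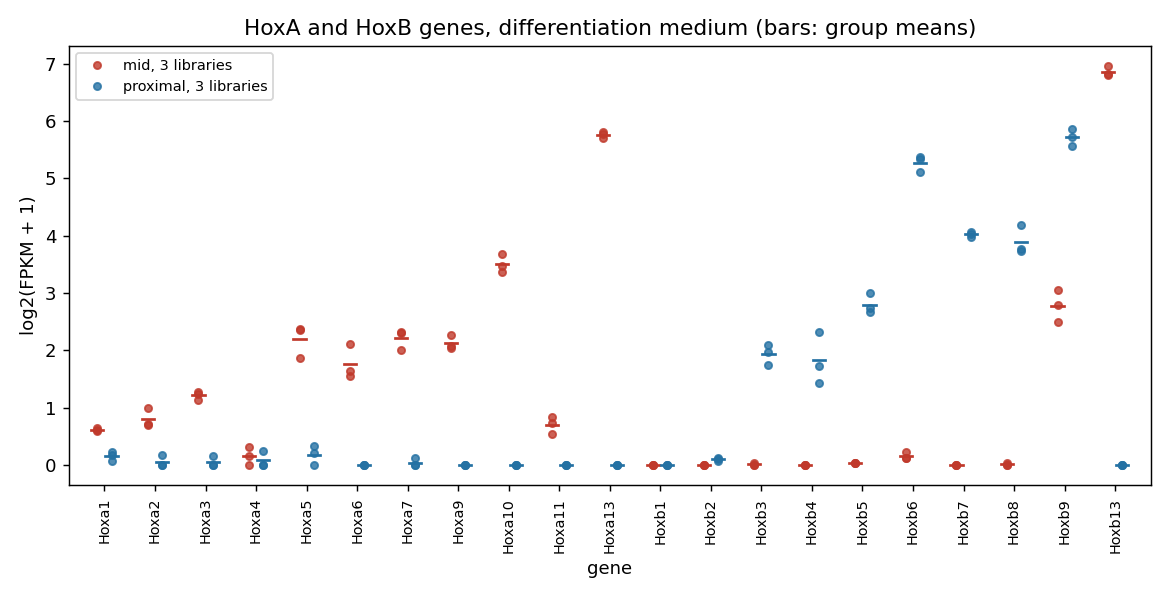
Levels of the HoxA and HoxB genes as log2(FPKM + 1) in the 3 mid (red) and 3 proximal (blue) libraries in differentiation medium, with bars for group means. HoxA genes and Hoxb13 sit higher in mid libraries, and Hoxb3 to Hoxb9 sit higher in proximal libraries.

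Some other position factors differed as well. Tbx3, a T-box factor, was at 9.13, 7.99 and 7.56 FPKM in proximal libraries and at most 0.0275 in mid libraries (-3.19 ± 0.11, adjusted p = 6.81e-12). Cdx2, the homeobox factor of intestinal identity, was expressed in both regions, at 108, 113 and 117 FPKM in mid and 216, 273 and 258 in proximal libraries (-1.13 ± 0.24, adjusted p = 0.00215). The groups did not overlap for Cdx2, as for 21.6% of all tested genes in this direction. Tbx3 passed the filter through proximal libraries alone, so that passing implied a difference. Of the 10 tested members of the list of other position and lineage factors, 1 was called higher and 3 lower, against 17.4% and 15.4% of all tested genes. Of the 3 lower, 2 passed the filter through proximal libraries alone, and among the other 8 members 1 was higher and 1 lower.

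Genes that move ions and water were mostly higher in mid organoids. Aqp8 (ENSMUSG00000030762, chromosome 7, 123061514 to 123067227), a water channel of surface colonocytes, was at 3109.9, 2107 and 4016 FPKM in mid libraries and at 0.191, 0.404 and 0.606 in proximal libraries. The difference was 11.06 ± 0.32 on the log2 scale (adjusted p = 1.28e-12). Car4, the carbonic anhydrase anchored in the surface membrane, was at 358, 240 and 442 FPKM in mid and 0.429, 1.66 and 0.889 in proximal libraries (7.45 ± 0.28, adjusted p = 1.97e-11). Both genes were abundant in every mid library and near 0 in every proximal library. The exchangers of electroneutral salt absorption differed as well. Slc9a3, a sodium-proton exchanger, was at 121, 101 and 125 FPKM in mid and 2.52, 5.64 and 4.10 in proximal libraries (4.56 ± 0.32, adjusted p = 4.85e-08). Slc26a3, which exchanges chloride for bicarbonate, was at 579, 485 and 543 FPKM in mid and 15.1, 39.3 and 39.5 in proximal libraries (4.17 ± 0.63, adjusted p = 0.00013). Atp12a, the colonic proton-potassium pump, was at 109, 97.6 and 117 FPKM against 2.19, 0.735 and 0.870 (5.64 ± 0.47, adjusted p = 3.08e-07). No proximal library reached the lowest mid library for any of these 5 genes, as for 24.4% of all tested genes in this direction. Aqp8, Car4 and Atp12a are among the genes with the highest fold changes, whose naming rule required groups without overlap. For Aqp8 this was also implied by the filter, which it passed through mid libraries alone.

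Of 37 listed ion and water genes 31 were tested, and 18 were called higher in mid organoids, 6 lower and 7 neither. Over all tested genes 17.4% were called higher and 15.4% lower. The list had a median log2 fold change of 1.14 against 0.0026 over all tested genes. Of the 31, 3 passed the filter through mid libraries alone and 2 through proximal libraries alone. Among the other 26, 15 were higher and 4 lower. Of all tested genes 10772 did not pass through 1 region alone, and 1667 of these were higher and 1555 lower. Further members higher in mid were Slc20a1, a phosphate transporter (3.78 ± 0.16), Aqp4, another water channel (3.35 ± 0.53), Hsd11b2, which protects the mineralocorticoid receptor from glucocorticoids (3.19 ± 0.31), and Scnn1a, a subunit of the epithelial sodium channel (1.58 ± 0.13). Members lower in mid were Slc4a4, a sodium-bicarbonate cotransporter (-2.40 ± 0.36), Kcnq1, a basolateral potassium channel (-2.02 ± 0.13), Slc26a6, another anion exchanger (-1.82 ± 0.14), and Car12, a carbonic anhydrase (-1.62 ± 0.24). Cftr, the chloride channel of fluid secretion, was at 2.12, 2.71 and 1.41 FPKM in mid and 9.96, 3.09 and 6.23 in proximal libraries (-1.18 ± 0.39, adjusted p = 0.0284), and leaving out proximal replicate 1 ended its call (-0.85). Members of this list outside its 4 largest differences were picked after their values were seen, as were Chgb, Slc51b, Slc7a9, Cck, Sst, Nts and Cd68 elsewhere. Car1, the most abundant carbonic anhydrase, was at 12674, 13397 and 14183 FPKM in mid and 12430.2, 22121 and 22395 in proximal libraries and was not called (-0.45 ± 0.42, adjusted p = 0.447).

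**Figure D3:**
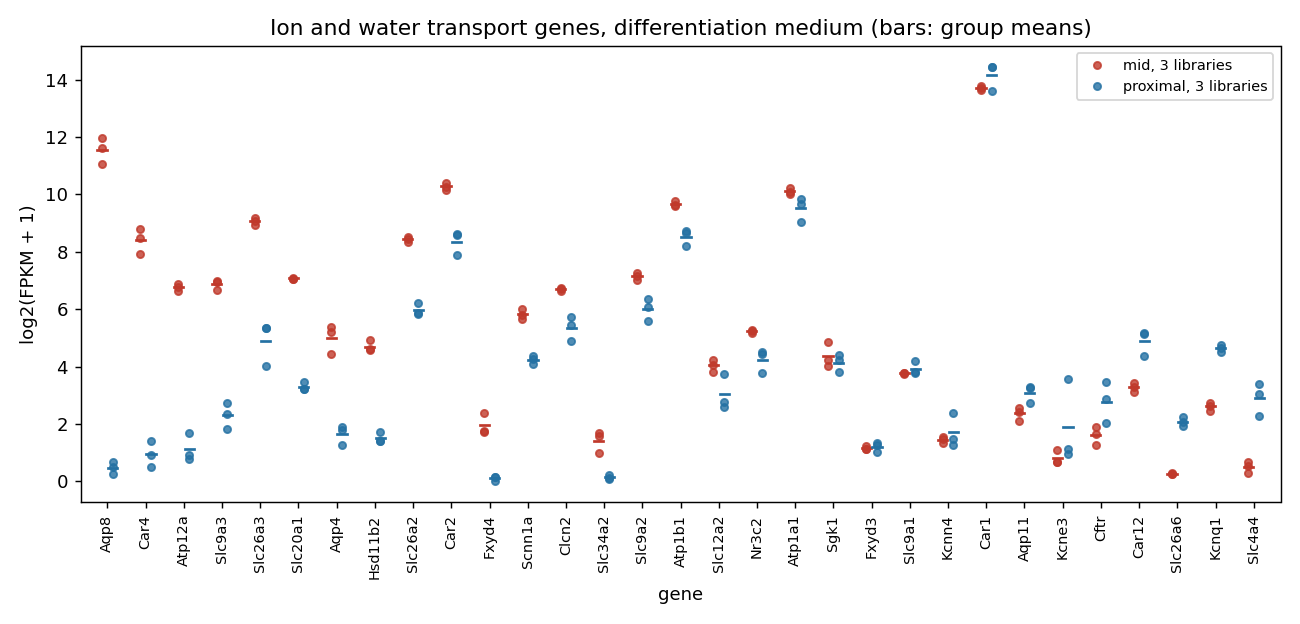
Levels of the 31 tested ion and water transport genes as log2(FPKM + 1), ordered by difference, in mid (red) and proximal (blue) libraries with bars for group means. Aqp8, Car4, Atp12a and Slc9a3 on the left are far higher in mid, and Slc4a4, Kcnq1 and Slc26a6 on the right are higher in proximal libraries.

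Beyond transport, the genes most in favour of mid organoids were also of mixed function. Tgm3 (ENSMUSG00000027401, chromosome 2, 129854269 to 129892319), a transglutaminase that cross-links proteins, was at 302, 269 and 387 FPKM in mid and 0, 0.0579 and 0.0136 in proximal libraries (8.27 ± 0.34, adjusted p = 5.12e-11). Adh1, an alcohol dehydrogenase, was at 519, 420 and 295 FPKM against 1.35, 1.61 and 2.09 (7.24 ± 0.56, adjusted p = 1.34e-07). Slc37a2, a sugar phosphate transporter, was at 125, 128 and 116 FPKM against 0.0181, 0 and 0.0170 (6.94 ± 0.41, adjusted p = 4.44e-09). These 3 genes were high in all mid libraries and close to 0 in all proximal libraries. The rule that chose them required groups without overlap. Tgm3 and Slc37a2 passed the filter through mid libraries alone, so that passing implied a difference. The other leading genes were Gsdmc4, a gasdermin whose reads may be shared with close paralogs (6.86 ± 0.62), Hao2, a peroxisomal hydroxyacid oxidase (5.50 ± 0.62), Slpi, a secreted protease inhibitor (5.46 ± 0.48), Saa1, an acute-phase protein with close paralogs (5.45 ± 0.50), B3galt5, a galactosyltransferase (5.44 ± 0.29), Spink1, a trypsin inhibitor (5.34 ± 0.26), and Nxpe4 (5.26 ± 0.22). B3galt5 was at 291, 245 and 316 FPKM in mid and 7.58, 5.39 and 4.08 in proximal libraries.

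The genes most in favour of proximal organoids were of mixed function. Prap1 (ENSMUSG00000025467, chromosome 7, 139673308 to 139677113), a secreted lipid-binding protein of the gut, was at 64.8, 183 and 132 FPKM in proximal and 5.92, 5.46 and 3.13 in mid libraries (-4.37 ± 0.49, adjusted p = 6.98e-06). Cyp4b1 (ENSMUSG00000028713, chromosome 4, 115481922 to 115504920), a cytochrome P450, was at 23.6, 70.6 and 37.4 FPKM in proximal and 1.98, 1.36 and 1.10 in mid libraries (-4.05 ± 0.27, adjusted p = 1.89e-08). Slc13a1, a sodium-sulfate cotransporter, was at 11.1, 29.7 and 23.9 FPKM against 0.314, 0.414 and 0.188 (-4.01 ± 0.23, adjusted p = 3.7e-09). Proximal replicate 1 was the lowest proximal library for each of these 3 genes. It still lay above every mid library, which the rule that chose these genes required. For Slc13a1 this was also implied by the filter, which it passed through proximal libraries alone. Defb37, a beta-defensin (-4.03 ± 0.27), Prl2a1, a prolactin family gene (-3.95 ± 0.32), Rbm11, an RNA-binding protein (-3.63 ± 0.17), Myl7, a myosin light chain (-3.32 ± 0.25), Bche, butyrylcholinesterase (-3.30 ± 0.18), Xpnpep2, an aminopeptidase (-3.27 ± 0.37), and Lgals2, a galectin (-3.20 ± 0.40), completed the group together with Hoxb8 and Slc51a. Each of the 15 highest and 15 lowest genes kept its direction and its call in every alternative run. The rule that chose them required the same call without proximal replicate 1 and no overlap between groups. Keeping the call without that library was thus fixed in advance, and keeping it in the other runs was favoured.

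Colonocyte markers did not move as a block. Of 25 tested markers 8 were called higher in mid, 7 lower and 10 neither, with a median of 0.37. Over all tested genes 17.4% were higher and 15.4% lower. Of the 8 higher markers, 2 passed the filter through mid libraries alone. Without proximal replicate 1 the counts were 7 and 7, and the number lower was 4 without proximal replicate 2, proximal replicate 3, mid replicate 1 or mid replicate 2. Krt20, a keratin of surface cells, was at 717, 621 and 935 FPKM in mid and 519, 827 and 743 in proximal libraries, with overlapping groups (0.13 ± 0.51, adjusted p = 0.876). Guca2a, the hormone guanylin, also overlapped, at 1541, 1207 and 1356 FPKM against 990.1, 1367 and 1391 (0.14 ± 0.31, adjusted p = 0.771). Guca2b, the related hormone uroguanylin, was at 7.76, 4.47 and 6.55 FPKM in mid and 26.9, 62.2 and 39.7 in proximal libraries (-2.54 ± 0.36, adjusted p = 7.03e-05). Small intestine and Paneth cell markers had 6 of 14 members tested, of which 2 were called lower and 0 higher, against 15.4% and 17.4% of all tested genes. The number lower was 1 without proximal replicate 2, mid replicate 1 or mid replicate 2. It was also 1 with a pseudocount of 0.1, no filter, a filter at an FPKM of 5 or the replicate number as a block. The number higher was 2 with a pseudocount of 0.1 or library weights. It was 1 without mid replicate 2, with only the libraries compared, with the replicate number as a block or with voom. Sis, the brush border enzyme sucrase-isomaltase, was at 3.55, 6.75 and 3.88 FPKM in proximal and 0.501, 0.143 and 0.0650 in mid libraries (-2.19 ± 0.17, adjusted p = 1.67e-07). It passed the filter through proximal libraries alone, so that passing implied a difference.

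Markers of hormone-producing enteroendocrine cells were higher in mid organoids. Pyy, the colonic peptide YY, was at 76.0, 45.7 and 75.8 FPKM in mid and 4.01, 4.30 and 4.91 in proximal libraries (3.59 ± 0.37, adjusted p = 2.75e-06). Insl5, a peptide of colonic L cells, was at 25.4, 14.1 and 8.29 FPKM against 0.0832, 0 and 0 (3.91 ± 0.36, adjusted p = 8.7e-07). Tac1, the substance P precursor, was at 9.40, 9.76 and 4.53 FPKM against 0.0177, 0.141 and 0.0663 (2.99 ± 0.31, adjusted p = 3.66e-06). These 3 genes were higher in every mid library than in any proximal library, whereas the peptide hormone genes Cck, Sst and Nts, which did not pass the filter, overlapped between the groups. Gcg, the proglucagon gene (2.06 ± 0.23), Chga (1.74 ± 0.26) and Chgb (1.28 ± 0.34), granule proteins shared by these cells, were also called higher. Only 6 of 15 listed markers were tested, and 3 of the 6 passed the filter through mid libraries alone. Insl5 and Tac1 were among those 3, so that passing implied their difference. Over all 15 the summed FPKM was 98.2 to 154 in mid and 14.5 to 19.3 in proximal libraries. In bulk RNA more cells of a type and more RNA per cell cannot be told apart.

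Goblet cell genes were called higher in 8 and lower in 1 of 17 cases, with a median of 0.86, against 17.4% and 15.4% of all tested genes. Without proximal replicate 1 the counts were 7 and 2. The number lower was also 2 without mid replicate 1. Spink4, a peptide of goblet granules, was at 172, 88.9 and 88.0 FPKM in mid and 6.44, 9.20 and 10.2 in proximal libraries (3.56 ± 0.33, adjusted p = 8.2e-07). Klk1, a tissue kallikrein, was at 55.5, 27.9 and 45.9 FPKM against 1.57, 4.08 and 3.40 (3.46 ± 0.29, adjusted p = 2.49e-07), and Clca1, a mucus-processing protease, at 593, 367 and 453 against 64.2, 133 and 132 (2.14 ± 0.49, adjusted p = 0.0034). Muc2, the main gel-forming mucin, was at 53.6, 37.8 and 32.1 FPKM against 20.1, 27.3 and 26.9 and was not called (0.69 ± 0.36, adjusted p = 0.152). Its groups did not overlap, and it was called when only the libraries compared entered the fit (adjusted p = 0.0478). Of 16 tested mucins and glycosyltransferases, which build and decorate the mucus, 7 were called higher and 2 lower, with a median of 0.79, and the number lower was 1 without proximal replicate 2, proximal replicate 3 or mid replicate 2. St3gal6 (2.996 ± 0.19) and St6galnac6 (2.83 ± 0.21), which add sialic acid, and B3gnt7, which extends sugar chains (2.87 ± 0.52), were among the higher genes.

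Energy and lipid metabolism differed in several gene groups. Beside the counts of calls below, 17.4% of all tested genes were called higher and 15.4% lower. Of the 13 genes encoded by the mitochondrial genome 11 were called higher in mid organoids and 0 lower, with a median of 1.501, and 11 were higher without proximal replicate 1. mt-Atp6, a subunit of ATP synthase, was at 716, 411 and 441 FPKM in mid and 80.9, 63.5 and 58.6 in proximal libraries (2.90 ± 0.49, adjusted p = 0.000354). mt-Co3, a subunit of cytochrome oxidase, was at 356, 178 and 328 FPKM against 129, 41.4 and 39.0 (2.19 ± 0.44, adjusted p = 0.00129). All 13 genes were apart between the groups in this direction, as were 24.4% of all tested genes. The mitochondrial share of reads was 4.56% ± 0.346 in mid and 2.57% ± 0.192 in proximal libraries (SD, n = 3). Of 26 nuclear oxidative phosphorylation genes 11 were higher and 0 lower, with a median of 0.44, and 22 were higher when libraries were weighted by how much they deviate from their group. Ndufa1, a complex I subunit, was at 206, 143 and 141 FPKM in mid and 73.1, 80.0 and 74.8 in proximal libraries (1.07 ± 0.23, adjusted p = 0.00211). Cox5b, a subunit of cytochrome oxidase, differed by 0.94 ± 0.17.

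Cholesterol genes were lower in mid organoids. For the list counts that follow, 17.4% of all tested genes were called higher and 15.4% lower. Of 24 tested genes of cholesterol synthesis and uptake 14 were called lower and 0 higher, with a median of -0.52, and 13 were lower without proximal replicate 1. Lss, which closes the sterol rings, was at 11.6, 11.4 and 9.50 FPKM in mid and 30.4, 28.9 and 29.7 in proximal libraries (-1.38 ± 0.21, adjusted p = 0.000163). The enzymes Mvd (-1.14 ± 0.18) and Pmvk (-1.11 ± 0.23) of the mevalonate pathway were lower as well. Bile acid genes had 7 of 11 members tested, of which 5 were lower and 0 higher, and 3 were lower without mid replicate 3. Slc51a, a subunit of the basolateral bile acid exporter, was at 29.6, 29.6 and 23.3 FPKM in proximal and 1.58, 0.99990 and 1.38 in mid libraries (-3.62 ± 0.13, adjusted p = 1.23e-11). Its partner subunit Slc51b was at 37.3, 42.2 and 28.9 FPKM in mid and 24.6, 40.0 and 27.6 in proximal libraries and was not called (0.24 ± 0.34, adjusted p = 0.639). Nr1h4, the bile acid receptor FXR, was at 29.4, 28.1 and 17.5 FPKM in mid and 81.1, 62.1 and 73.1 in proximal libraries (-1.52 ± 0.42, adjusted p = 0.0114), and its adjusted p was 0.0544 without mid replicate 3. Dietary fat genes split into 4 higher and 4 lower of 15. Apob, the scaffold of lipoproteins, was higher in mid (3.29 ± 0.50) and Mogat2, which builds triglyceride, lower (-1.83 ± 0.28). Targets of PPAR and fatty acid oxidation genes were higher in 9 and lower in 2 of 23 cases, and the number lower was 0 without proximal replicate 2 and 1 without proximal replicate 3, mid replicate 2 or mid replicate 3. The lipid droplet gene Plin2 was at 83.6, 80.7 and 114 FPKM in mid and 21.3, 26.8 and 25.9 in proximal libraries (1.86 ± 0.31, adjusted p = 0.000276).

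NAD and nicotinic acid genes, the subject named in the title, had 16 of 28 members tested, of which 6 were called higher, 1 lower and 9 neither, with a median of 0.40. Among all tested genes 17.4% were called higher and 15.4% lower. Without proximal replicate 1 the counts of the list were 4 and 1. Slc5a8, which takes up butyrate and nicotinate together with sodium, was at 56.8, 41.4 and 25.3 FPKM in mid and 3.27, 4.69 and 3.58 in proximal libraries (3.06 ± 0.34, adjusted p = 6.45e-06). Every mid library was above every proximal library. Naprt, the enzyme that starts NAD synthesis from nicotinic acid, was at 42.4, 37.6 and 38.9 FPKM in mid and 18.5, 37.8 and 27.3 in proximal libraries and was not called (0.55 ± 0.30, adjusted p = 0.174). Its groups overlapped through proximal replicate 2. Of the enzymes of the last step of NAD synthesis, Nmnat3, the mitochondrial form, was higher in mid (1.25 ± 0.15, adjusted p = 1.51e-05) and Nmnat2 lower (-1.40 ± 0.28, adjusted p = 0.00136). Nmnat2, the only lower call of the list, passed the filter through proximal libraries alone, so that passing implied a difference. Nmnat1, also of this step, was called higher. It lost its call scaled to summed reads or without proximal replicate 2, mid replicate 1 or mid replicate 2. Slc16a1, a monocarboxylate transporter that also carries butyrate, was at 231, 200.9 and 200.4 FPKM in mid and 60.4, 105 and 108 in proximal libraries (1.24 ± 0.22, adjusted p = 0.000403).

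Defence, detoxification and signalling genes held changes in both directions. The shares over all tested genes were 17.4% higher and 15.4% lower. Of 15 tested mucosal defence genes 8 were called higher and 1 lower, and 5 of the 15 passed the filter through mid libraries alone. Il18, a cytokine of the epithelium, had reads in both regions, at 169, 176 and 159 FPKM in mid and 19.0, 12.7 and 20.0 in proximal libraries (3.24 ± 0.19, adjusted p = 4.05e-09). Interferon response and antigen presentation genes were higher in 9 and lower in 1 of 17 cases, but in 4 and 1 without proximal replicate 1 and in 5 and 0 without mid replicate 3, and 0 were lower without proximal replicate 2, mid replicate 1 or mid replicate 2. Oas1a (1.21 ± 0.27) and Irf1 (0.95 ± 0.20) kept their calls without proximal replicate 1, and Isg15 did not. Xenobiotic metabolism genes split into 11 higher and 8 lower of 30. Ces2a, a carboxylesterase with close paralogs, was at 905, 600 and 908 FPKM in mid and 119, 96.9 and 74.8 in proximal libraries (3.04 ± 0.27, adjusted p = 4.87e-07). Gsta4, a glutathione transferase, was at 188, 218 and 240 FPKM in mid and 919, 1207 and 1074 in proximal libraries (-2.30 ± 0.22, adjusted p = 1.03e-06).

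Among 26 tested nuclear receptors 10 were called higher and 5 lower, against 17.4% and 15.4% of all tested genes. Of the 10, 3 passed the filter through mid libraries alone, and 7 of the other 23 receptors were higher. The number lower was 3 without proximal replicate 2, mid replicate 1 or mid replicate 2 and 2 without mid replicate 3. Hnf4g, a receptor of the absorptive programme, was at 8.22, 9.61 and 6.42 FPKM in mid and 36.1, 42.0 and 48.7 in proximal libraries (-2.26 ± 0.22, adjusted p = 1.3e-06). Vdr, the vitamin D receptor, was at 146, 128 and 119 FPKM in mid and 31.9, 50.6 and 39.3 in proximal libraries (1.69 ± 0.22, adjusted p = 3.1e-05), and Thrb, a thyroid hormone receptor, was higher by 2.15 ± 0.18. Rbp2, a retinol carrier (2.47 ± 0.31), and Aldh1a1, which makes retinoic acid (-1.67 ± 0.26), went opposite ways. Peptide and amino acid carriers split into 4 higher, 3 lower and 4 neither of 11, with a median of -0.08. Slc7a9, a cystine carrier, was lower in mid (-1.46 ± 0.13). Slc15a1, the dipeptide transporter, was at 68.5, 61.4 and 73.5 FPKM in mid and 5.06, 10.4 and 6.40 in proximal libraries (3.10 ± 0.19, adjusted p = 9.82e-09). The growth factor Ereg, a ligand of the EGF receptor, was lower in mid (-1.96 ± 0.21). Of 11 tested Notch pathway genes 5 were lower and 1 was higher, against 15.4% and 17.4% of all tested genes. Among the lower genes were the ligand Jag2 (-0.99 ± 0.20) and the receptor Notch1 (-0.85 ± 0.20), and the higher gene was the ligand Dll1 (1.04 ± 0.13). The number lower was 3 without proximal replicate 1, proximal replicate 3, mid replicate 1 or mid replicate 3. Dll1 passed the filter through mid libraries alone and 2 of the lower genes through proximal libraries alone, so that passing implied a difference. Of the other 8 Notch pathway genes, 3 were lower and 0 higher. Of 22 glycolysis and hypoxia genes 1 was higher and 0 lower (1 lower without proximal replicate 1), and of 16 ER stress genes 1 was higher and 0 lower.

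Genes of dividing cells were not called in either direction, and their levels were highest in proximal replicate 1. Mki67, a marker of cycling cells, was at 1.96, 3.17 and 1.58 FPKM in mid and 12.6, 0.714 and 2.03 in proximal libraries (-0.38 ± 0.59, adjusted p = 0.667). Without proximal replicate 1 the difference was 0.48 and was not called either. None of 13 tested mitosis genes and none of 13 tested DNA replication genes was called with limma, and 1 and 0 of them had an unadjusted p under 0.05. Both counts of calls were 0 with voom as well, while library weights or leaving out proximal replicate 1 gave 1 higher mitosis gene and 2 higher replication genes. In the other direction, 1 mitosis gene was lower with a pseudocount of 0.1 or without proximal replicate 2, and 1 replication gene with only the libraries compared. The medians of these lists were -0.66 and -0.37 with it and 0.24 and 0.38 without it. Of 9 tested crypt stem and Wnt genes 2 were called lower, against 15.4% of all tested genes. This number was 0 without mid replicate 1 and 1 without proximal replicate 1 or mid replicate 3. Without proximal replicate 1 another 1 was higher. Lgr5, a receptor of stem cells, had 0 reads in 5 of the 6 libraries. The 5 genes with the largest higher calls that were lost without proximal replicate 1 were Isg15, Ces1d, Acta1, Ybx2 and Serpinb6b, and those lost among lower calls were Sult1c2, Pck2, Naaladl1, Trex2 and Npnt. Calls gained were led by Gstm1, mt-Nd4l, Hmgn2-ps, Hmgn2 and Plk1, higher in mid, and by Cbr3, Vill, Tubb2b, Aldoc and P4ha1, lower in mid.

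**Figure D4:**
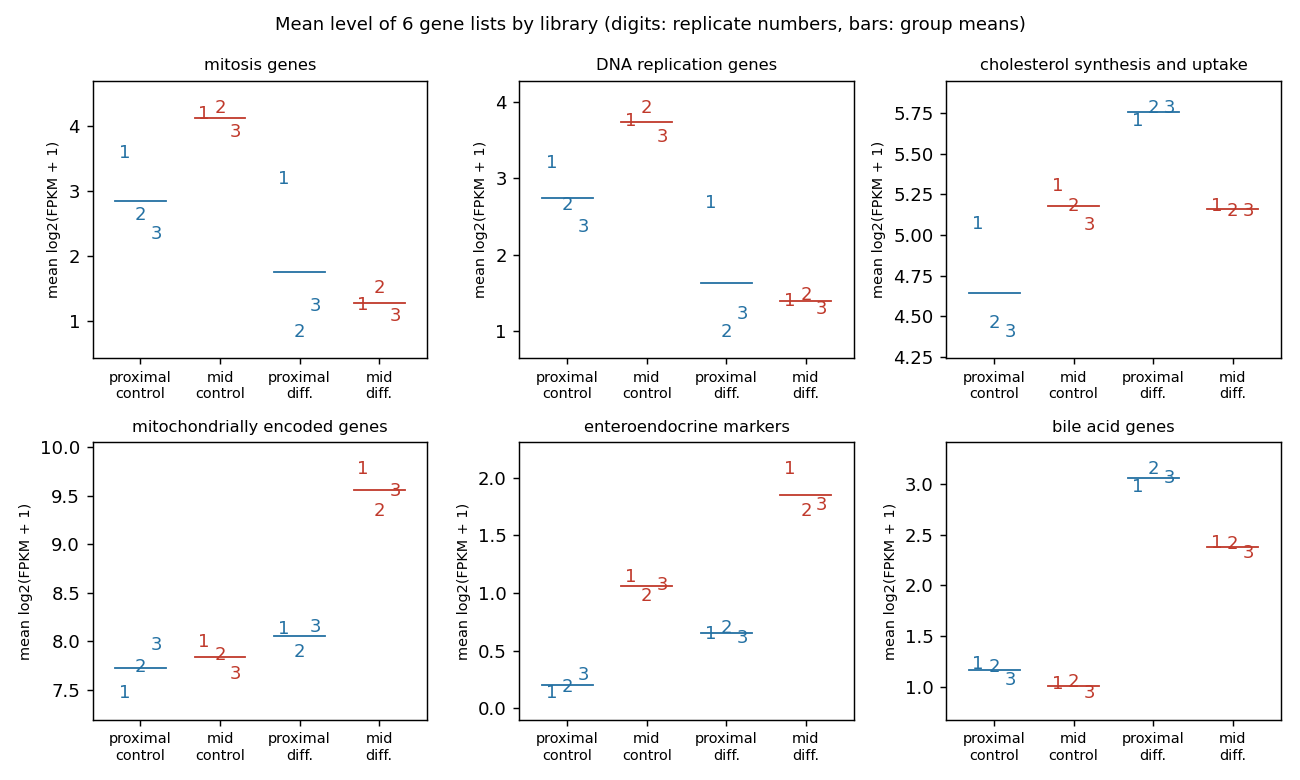
Mean log2(FPKM + 1) over 6 gene lists in each library of proximal and mid organoids in both media, with digits for replicate numbers and bars for group means. Proximal differentiation replicate 1 lies at 3.18 for mitosis genes, above 0.838 and 1.24 for its replicates.

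The same regions were also compared in the control medium, which shares no library with the comparison above, to ask which regional differences depend on the medium. In control medium 1367 genes were called (12.1%), 814 higher in mid (7.21%) and 553 lower (4.9%). That count was 710 without proximal control replicate 2, 696 without proximal control replicate 3, 765 without mid control replicate 1 and 734 without mid control replicate 2. Of the genes called higher in differentiation medium 472 were also called higher in control medium, 24.1% of the former and 58.0% of the latter. Of the genes called lower 314 were lower in both, 18.1% and 56.8%. The interaction of region and medium, which tests whether the difference itself changed, was called for 1440 genes (12.8%), 697 higher (6.18%) and 743 lower (6.58%), and for 1500 without proximal differentiation replicate 1. It was called for 913 genes (461 and 452) without proximal control replicate 2, for 902 (469 and 433) without mid control replicate 2, and for 478 lower genes without proximal control replicate 3.

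Hox genes were apart between the regions in both media. Hoxb13 was at 58.5 ± 10.1 FPKM in mid control libraries and at 0 in proximal control libraries (SD, n = 3), with an interaction of 0.98 ± 0.24 (adjusted p = 0.016). For Hoxb6 no change of the difference was called (interaction 0.02 ± 0.17, adjusted p = 0.946). For the list counts that follow, 7.21% of all tested genes were called higher and 4.9% lower in control medium. The interaction was called higher for 6.18% of all tested genes and lower for 6.58%. Of the 31 ion and water genes 12 were called higher in mid and 3 lower in control medium. Their interaction was called higher for 9, lower for 2 and for neither in 20. Of the 15 mucosal defence genes 10 were higher in control medium, and the interaction was higher for 4, lower for 2 and not called for 9. Aqp8 was at 18.4 ± 3.57 FPKM in mid control and 0.276 ± 0.264 in proximal control libraries, and the interaction was 7.13 ± 0.45 (adjusted p = 1.78e-07). Slc37a2 was at 0.366 ± 0.137 and 0.0395 ± 0.0335 FPKM in control medium (interaction 6.55 ± 0.57, adjusted p = 4.95e-06). Mptx1, a mucosal pentraxin, was at 36.0, 16.6 and 16.2 FPKM in mid and 0.0754, 0 and 0 in proximal differentiation libraries, and at 0.164 ± 0.0631 and 0 FPKM in control medium (4.23 ± 0.29, adjusted p = 4.06e-07). Slc5a8 was near 1 FPKM in both regions in control medium, at 0.820 ± 0.524 and 0.721 ± 0.285 (3.003 ± 0.48, adjusted p = 0.00102). In the other direction, Guca2b was higher in mid control libraries, at 7.15 ± 1.31 against 3.26 ± 1.48 FPKM, and lower in mid differentiation libraries (-3.54 ± 0.51, adjusted p = 0.000397). Cholesterol genes were called higher in mid in 10 and lower in 1 of 24 cases in control medium, and the interaction was called lower for 15 of the 24 and higher for 0. Of the 13 mitochondrially encoded genes 0 were called in control medium with limma, 0 at an unadjusted p under 0.05 and 0 with voom, and 6 had a higher interaction.

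Of the 12 genes with the largest interactions 6 were not called by limma voom on the recovered reads, which differs in input, scaling and weights, and the cause was not tested. Those were Car4 (1.95, adjusted p = 0.36 in place of 6.10), Tgm3 (4.89, 0.187), Spink1 (3.70, 0.113), Cyp4b1 (-1.03, 0.702), Prl2a1 (-1.86, 0.515) and Slc51a (-1.68, 0.133). Each of the 6 was below 6 FPKM on average in both regions in control medium.

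**Figure D5:**
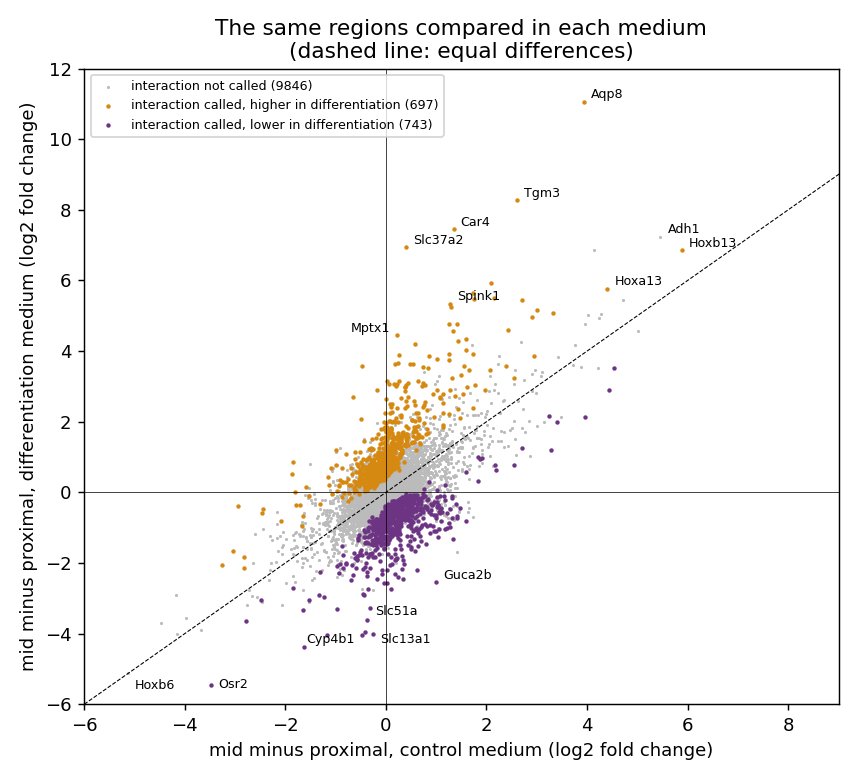
Each point is a gene, with its mid minus proximal log2 fold change in control medium on the x axis and in differentiation medium on the y axis, and the dashed line marks equal differences. Orange (697) and purple (743) points had a called interaction, Aqp8 far above the line and Slc13a1 far below it, while Hoxb6 lies on the line.

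Distal organoids in differentiation medium are given beside these values, since they share proximal or mid libraries with the comparison. Distal against proximal organoids gave 3741 called genes (33.1%), 1929 higher (17.1%) and 1812 lower (16.1%), and distal against mid organoids 87 (0.771%), 19 higher (0.168%) and 68 lower (0.603%) in distal. The latter count was 43 without mid replicate 1, 55 without mid replicate 2, 51 with a pseudocount of 0.1, 160 with no filter and 747 with library weights. Aqp8 averaged 4090 FPKM in distal and 3078 in mid libraries, Tgm3 332 and 319, Hoxa13 52.1 and 53.3, and Osr2 was at 0 in both. Atp12a averaged 339 FPKM in distal and 108 in mid libraries, without a call (adjusted p = 0.362). Slc9a3 was lower in distal, at 31.4 ± 10.5 FPKM (-1.89, adjusted p = 0.00958), and so was Guca2a, at 334 FPKM against 1368 in mid (-2.05, adjusted p = 0.00404).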

How the data were processed

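RNA was sequenced from poly-A selected libraries of mouse colon organoids. The authors deposited FPKM per gene and library together with gene lengths, per the file headers. HISAT2 2.0.5, featureCounts 1.5.0-p3 and the mm39 build are named in the submitters' processing notes, but use of strand in the counting is given nowhere in these notes, so overlapping and antisense genes may share reads. FPKM times gene length fell on whole reads in 100% of values (tolerance 0.001), which gave the depths. The library size behind the FPKM differed from the summed reads by a factor of 0.827 to 1.04 in the 6 libraries compared. The 6 columns of group means that the authors deposited were left out of every test, and 0 columns stayed unmapped.

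Tested genes reached an FPKM of 1 in 3 or more of the 6 libraries. Of these genes 313 passed through mid libraries alone, 294 of them called higher, and 201 through proximal libraries alone, 180 of them called lower. For such genes passing the filter implied a difference. All 18 libraries entered the fit to log2(FPKM + 1), with 6 group means and 12 residual degrees of freedom. It was run in limma 3.58.1 under R 4.3.3, using the trended empirical Bayes option and two-sided tests. Benjamini-Hochberg adjustment ran over all 11286 tested genes in each comparison, with a threshold of 0.05, and "called" means past it. Errors after ± are standard errors beside fold changes and standard deviations beside FPKM. On simulated data for the mid against proximal comparison (11286 genes), 76% of 100 changes of 2-fold and 98% of 100 changes of 4-fold were recovered with 16 false calls. The simulation gave every gene the same spread beyond counting error and held no library that stands apart. Its rates therefore need not hold for the real libraries. Plots were drawn with matplotlib 3.10.9.

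All members, the 40 gene lists (702 genes) and the naming rule were chosen with earlier results of these data known. Named genes are the 15 highest and 15 lowest fold changes among protein-coding genes that were called, also without proximal differentiation replicate 1, with no overlap between groups and a mean of at least 5 FPKM in a group. To these were added up to 4 called members of each list, a fixed set of markers, the 5 leading genes lost or gained in each direction without that library, and the 6 highest and 6 lowest interactions. Lists are described by counts and medians without a test. Alternatives covered the pseudocount, filters, scaling, libraries in the fit, library weights, the replicate number as a block, voom and each library left out.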

Additional observations from a re-analysis of the deposited data

Results flagged for a closer look

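The difference between mid and proximal organoids was called as dependent on the medium for 1440 genes by the interaction term in limma. That count was 3832 with library weights and 902 without mid control replicate 2. Among protein-coding genes the highest interactions were those of Aqp8 (7.13), Slc37a2 (6.55), Car4 (6.10), Tgm3 (5.68), Mptx1 (4.23) and Spink1 (4.08), where mid organoids gained over proximal organoids in differentiation medium. The lowest were those of Slc13a1 (-3.75), Cyp4b1 (-3.58), Guca2b (-3.54), Prl2a1 (-3.54), Slc51a (-3.25) and Xpnpep2 (-2.95), where proximal organoids gained. The interactions of Car4, Tgm3, Spink1, Cyp4b1, Prl2a1 and Slc51a, genes with low levels in control medium, were not called with voom. Groups of 3 libraries are too small to test for a library that stands apart within a group.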

How the results depend on the processing

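The count of 3696 genes called between mid and proximal organoids in differentiation medium stayed within 1.5 times under every alternative, from 2600 with a filter at an FPKM of 5 to 4756 with library weights, and from 2835 to 3561 when 1 library was left out. It was 3597 with a pseudocount of 0.1, 4144 with no filter, 3710 with TMM factors, 3215 with only the libraries compared and 3658 with voom. The interaction rose to 3832 genes with library weights (1747 higher, 2085 lower), and ranged from 902 to 1520 without 1 library (461 to 709 higher, 433 to 835 lower). The control medium gave 5076 genes with library weights and 696 to 1548 without 1 library. Distal against mid gave 51 genes with a pseudocount of 0.1, 160 with no filter, 45 with a filter at an FPKM of 5, 747 with library weights, and 43 to 65 without 1 library. The cause of these moves was not tested, except that other filters test other numbers of genes and leaving out a library leaves 2 in its group. The estimation of library weights did not fully converge.

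Of 152 named genes 136 were called, and 109 kept direction and call in every alternative, while 25 lost the call without 1 library. The 109 include the 30 highest and lowest genes, which were chosen among those also called without proximal replicate 1. Signs turned for genes that were not called in the main comparison. The log2 fold change of Mki67 was 0.18 with library weights and ran from -1.02 to 0.48 without 1 library, the highest being without proximal replicate 1. That of Krt20 was -0.0050 scaled to summed reads and -0.060 with library weights, and ran from -0.070 to 0.27 without 1 library. That of Guca2a ran from -0.019 to 0.23, and that of Plk1 from -0.067 to 1.25. Among the 80 counts of list members, 46 moved by more than 1.5 times in some alternative.

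The labels do not say whether replicate numbers pair the samples. Correlations of same-numbered mid and proximal deviations from the group mean were 0.139, -0.285 and 0.239, and mid replicate 2 correlated best with proximal replicate 1. With 3 libraries a group, these values cannot decide whether numbers share an animal or a batch. With the replicate number as a block 3866 genes were called (2051 higher, 1815 lower), and 1604 had an interaction (778 higher, 826 lower). Genes below the level filter were not tested, and 3 libraries a group limit the precision of all values.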
